A study of Mus musculus with 12 samples.

Results

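Retinoid genes were followed on 12 Affymetrix Mm430_2.0 arrays of mouse fibroblasts. The 9 genes are Stra6, Aldh1a1, Aldh1a7, Aldh1a2, Aldh1a3, Crabp1, Crabp2, Rarb and Cyp26b1, each read by 1 of the 16475 probe sets that remained after the hybridization controls were left out. They were chosen by pathway and by measured values of these arrays: Aldh1a1 and Stra6 for their difference between the cell lines, and Aldh1a7 for its higher level with RSL. That choice looked across all 12 arrays, so the differences between clone and parental cells under either treatment, and the RSL differences in the clone, are described for the 9 genes and not tested. The RSL difference in parental cells is tested. The 4 groups had 3 arrays each. They were 3T3-ind-IER2 #11 cells given 200 nM RSL, the same cells given DMSO, parental NIH 3T3 cells given 200 nM RSL, and parental cells given DMSO, all harvested after 24 h. NIH 3T3 is an established line of mouse embryonic fibroblasts. The 3T3-ind-IER2 #11 cells (cell type Klon11 in the labels) carry the pNEBR-R1 and pNEBR-Ier2-hygro plasmids of the RheoSwitch system, in which RSL is the ligand that is meant to switch on mouse Ier2. They are 1 clone, so the plasmids, the selection and the history of that clone cannot be told apart in any difference from parental cells. The labels list the same growth medium, with G418 and hygromycin, for all samples.

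Retinol (vitamin A) reaches many cells bound to a carrier in blood and can enter them through the membrane receptor STRA6. Retinol dehydrogenases oxidise it reversibly to retinaldehyde, and retinaldehyde dehydrogenases of the ALDH1A family make retinoic acid from that in a step that is not reversed. Retinoic acid binds nuclear receptors (RARs) that partner with RXRs on DNA, the cellular binding proteins CRABP1 and CRABP2 carry it in the cytoplasm, and CYP26 enzymes clear it. Fibroblasts in several tissues take part in this pathway. The arrays measure RNA, not retinoids, and in bulk RNA fewer cells with a transcript and less of it per cell cannot be told apart.

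Levels are given as log2 intensities, background-corrected by RMA and quantile-normalized by the authors, so that a difference of 1 is a doubling. Over all probe sets, the correlation was 0.9981 to 0.9992 within a group and 0.9913 to 0.9932 between clone and parental arrays. All 10 fibroblast markers were above the first quartile of all probe sets on every array. Lists for macrophages, epithelium, endothelium, fat cells and stellate cells had mean log2 levels between 6.09 and 6.43 on every array, near the first quartile of 6.23 to 6.30. Above the first quartile on all 12 arrays were 2 of 6 macrophage, 2 of 6 epithelial, 1 of 5 endothelial, 0 of 3 fat cell and 1 of 3 stellate cell markers. Ptprc, Adipoq and Lrat were the lowest markers of leukocytes, fat cells and stellate cells, at percentiles of at most 3.5, 7.8 and 9.8. Other markers of these lists lay higher, with Csf1r at percentiles 53.5 to 60.7, Des at 47.8 to 52, Cd68 at 27.2 to 46.7 and Fabp4 at 20.3 to 47.3. Within those lists Tie1 and Fabp4 were higher in the clone than in parental cells (log2 differences of 0.66 and 0.49 in the arrays labelled RSL), and their part in the results below was not tested. Ier2 itself went against the labels: its mean log2 level was 8.55 in the clone arrays labelled RSL and 9.02 in the clone arrays labelled DMSO, a difference of -0.47 (adjusted p = 4.64e-05, limma). Parental means of Ier2 were 8.75 in the arrays labelled RSL and 8.58 in those labelled DMSO. The clone differed from them by -0.20 (adjusted p = 0.00533) and 0.45 (adjusted p = 3.24e-06, both limma). Whether that probe set reads the RNA of the plasmid is not known, and whether the RSL and DMSO labels of the clone arrays were exchanged was not tested. An exchange would turn the sign of every RSL difference in the clone given below. It would also change each difference between clone and parental cells within a treatment, and each difference between their RSL effects. The treatment groups are therefore named by their labels, and "with RSL" or "with DMSO" below means only the arrays so labelled.

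Aldh1a1 and Aldh1a7 lie beside each other on mouse chromosome 19, with 0 protein-coding genes between them in RefSeq. Their promoters are shown because the 2 are paralogs side by side whose levels, given below, differed in pattern. RefSeq promoter windows (GRCm38.p6) were found for 7 of the 9 genes, 11 windows in all. The 100 bases before the start site of Aldh1a1 (the second of its listed starts, chr19:20601868-20601967, plus strand) and of Aldh1a7 (chr19:20727557-20727656, minus strand) are given 5′ to 3′, with the longest run that both share in capitals.
Aldh1a1: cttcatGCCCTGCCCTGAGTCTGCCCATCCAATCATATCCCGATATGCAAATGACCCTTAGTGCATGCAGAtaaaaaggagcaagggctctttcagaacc
Aldh1a7: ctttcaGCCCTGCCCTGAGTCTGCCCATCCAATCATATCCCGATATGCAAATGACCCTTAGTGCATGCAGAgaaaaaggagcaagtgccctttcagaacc
The stretches were identical at 94 of 100 positions, with an unbroken shared run of 65 bases. In the other 47 pairs of windows between members, 17 to 35 of 100 positions matched and no shared run exceeded 13 bases. Both windows hold CCAAT (either strand), as do 37.4% of the 32851 promoter windows.

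Rarb is shown for a match to a known kind of element. It is a classical target of its own ligand, and its window was the single one among the 11 with a direct repeat of 2 hexamers of the kind that RAR and RXR bind. The hexamers searched were AGGTCA, its variant AGTTCA and the related GGGTCA as well as GGTTCA, in direct repeat with 1, 2 or 5 bases between them, on both strands. A repeat with a spacer of 5 was found in 0.0974% of all windows, one with a spacer of 2 in 0.268% and one with a spacer of 1 in 0.222%. In the Rarb stretch (chr14:16575477-16575576, minus strand) the hexamers are in capitals.
Rarb: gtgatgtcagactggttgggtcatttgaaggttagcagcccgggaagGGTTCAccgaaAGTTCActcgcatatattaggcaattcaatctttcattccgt
The repeat lies 53 to 37 bases before the start. A match is a description of letters and says nothing of binding in these cells.

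Stra6 and Aldh1a1 stood far above parental levels in the clone under both treatments. Stra6, the receptor for retinol uptake, had log2 levels of 9.74, 9.62 and 9.74 in the clone arrays labelled RSL and 9.83, 9.83 and 9.88 in the clone arrays labelled DMSO. In parental cells it had 7.24, 7.20 and 7.22 with RSL and 7.13, 7.21 and 7.15 with DMSO. All 6 clone arrays lay above all 6 parental arrays, and within the clone the arrays labelled RSL lay below those labelled DMSO. The clone was higher than parental cells by 2.48 on the log2 scale with RSL (95% interval 2.40 to 2.56, 5.59-fold) and by 2.68 with DMSO (6.41-fold). These differences chose the gene and carry no test.

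Aldh1a1, a retinaldehyde dehydrogenase of adult tissues, had the largest clone difference of all 16475 probe sets in both treatment arms. Its log2 levels were 9.61, 9.65 and 9.65 in the clone arrays labelled RSL and 9.50, 9.56 and 9.44 in the clone arrays labelled DMSO. In parental cells they were 6.43, 6.36 and 6.43 with RSL and 6.26, 6.47 and 6.35 with DMSO, and 1 of these DMSO arrays was under the first quartile of its probe sets. Parental signal for this gene was therefore close to the lower end of the range. The table holds no detection calls, so whether it was above background is not known, and where it was not, the ratios for this gene are lower bounds. In contrast, all 6 clone arrays stood above each array's median of 7.03 to 7.06. With RSL the clone was higher by 3.23 (95% interval 3.13 to 3.33, 9.39-fold). With DMSO the difference was 3.14 (8.79-fold), followed by Stra6 in 2nd place and then by Thbs1 at 2.65, the first named gene outside the 9. Both differences chose the gene, as those of Stra6 did, and carry no test.

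Aldh1a7, the rodent neighbour and close relative of Aldh1a1, is known to work poorly on retinaldehyde. It had 9.20, 9.21 and 9.22 in the clone arrays labelled RSL and 8.53, 8.61 and 8.55 in the clone arrays labelled DMSO. In parental cells it had 7.55, 7.45 and 7.68 with RSL and 7.47, 7.67 and 7.55 with DMSO. The 4 groups formed 3 levels: the clone arrays labelled RSL, the clone arrays labelled DMSO, and the parental arrays, whose groups overlapped. The difference between clone and parental cells was 1.65 (3.13-fold) with RSL and 1 log2 unit (2-fold) with DMSO. Within the clone, the arrays labelled RSL were higher by 0.64 (95% interval 0.53 to 0.76, 1.56-fold), which ranked 4th by size among all probe sets, after Egr1, Igfbp7 and Ptx3. In parental cells the corresponding difference was 0.00 (95% interval -0.11 to 0.11, adjusted p = 0.994, limma). The difference between the 2 RSL effects was 0.65 (standard error 0.08). All values of Aldh1a7 that involve the clone chose the gene and carry no test.

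The neighbouring gene had a smaller step. Aldh1a1 differed by 0.14 between the clone arrays labelled RSL and DMSO (95% interval 0.04 to 0.24) with groups that did not overlap, and by 0.04 in parental cells (95% interval -0.05 to 0.14, adjusted p = 0.771, limma). Whether probes of one gene also read RNA of the other was not tested, since the probe sequences were not analysed here.

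**Figure D1:**
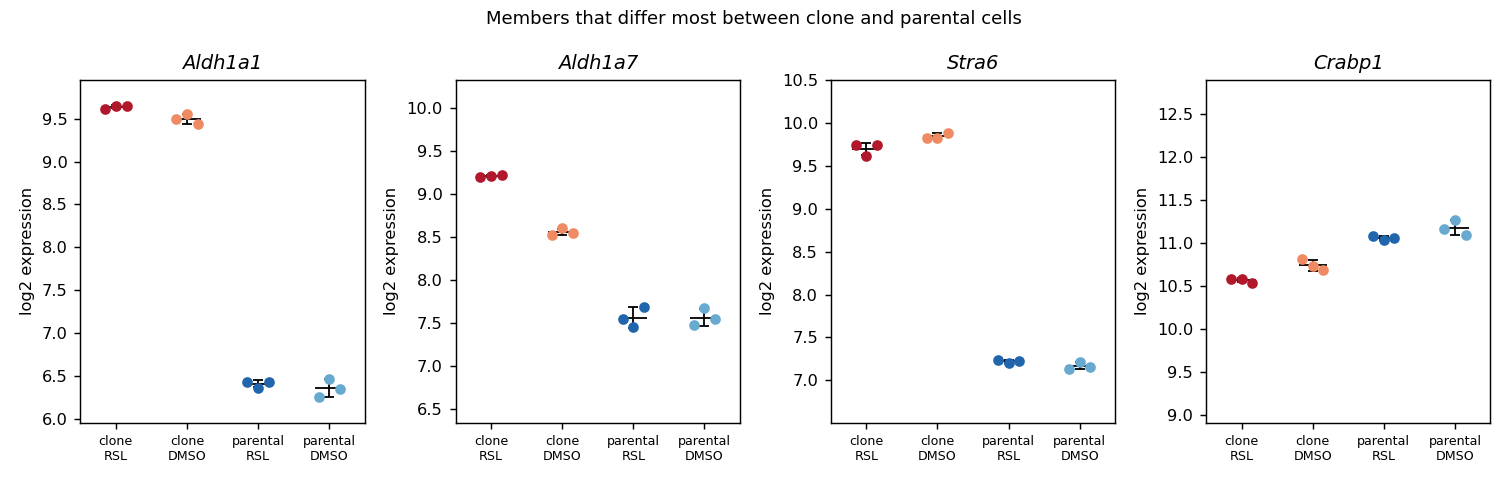
Log2 expression of Aldh1a1, Aldh1a7, Stra6 and Crabp1 on each array (points), with group means and SD (bars, n = 3 arrays); every panel spans the same 4 log2 units. Aldh1a1 and Stra6 separate the clone from parental cells, Aldh1a7 forms 3 levels, with means of 9.21 in the clone arrays labelled RSL, 8.56 in those labelled DMSO and 7.56 in both parental groups, and Crabp1 runs the other way.

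The remaining retinaldehyde dehydrogenases did not follow. Aldh1a2, the main enzyme of retinoic acid synthesis in the early embryo, had mean log2 levels of 6.29 ± 0.05 and 6.22 ± 0.03 in the clone with RSL and DMSO, and 6.32 ± 0.01 and 6.30 ± 0.03 in parental cells with RSL and DMSO (SD, n = 3 each). Aldh1a3, a relative with a place in eye and nose development, had 6.41 ± 0.07 and 6.36 ± 0.01 in the clone, against 6.42 ± 0.04 and 6.41 ± 0.05 in parental cells, in the same order of treatments. Both lay close to the first quartile of probe sets on every array. With RSL the clone differed from parental cells by -0.03 for Aldh1a2 (95% interval -0.10 to 0.04). For Aldh1a3 the difference was -0.01 (95% interval -0.09 to 0.08), and its sign turned without clone RSL replicate 1. With DMSO the differences were -0.08 for Aldh1a2 (95% interval -0.15 to -0.01) and -0.05 for Aldh1a3 (95% interval -0.14 to 0.03), and in both genes the clone arrays lay below the parental ones without overlap. These values stand beside the difference of 3.14 for Aldh1a1 with DMSO.

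Among the binding proteins, Crabp1 was lower in the clone. It had 10.58, 10.58 and 10.54 in the clone arrays labelled RSL and 10.81, 10.73 and 10.69 in the clone arrays labelled DMSO. In parental cells it had 11.08, 11.04 and 11.06 with RSL and 11.17, 11.27 and 11.09 with DMSO. The 4 groups followed each other without overlap, with the clone below parental cells and, in each cell line, RSL below DMSO. The clone arrays labelled RSL were lower than the parental ones by a log2 difference of -0.49 (95% interval -0.58 to -0.40, ratio 0.71). The difference in the arrays labelled DMSO was -0.43. Crabp2, which delivers retinoic acid to RARs, averaged 6.71 ± 0.07 in the clone arrays labelled RSL and 6.74 ± 0.01 in the parental arrays labelled RSL (SD, n = 3 each), a difference of -0.03 (95% interval -0.13 to 0.07).

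Rarb, the receptor gene with the direct repeat shown above, was under the first quartile on all 12 arrays. Its levels were 6.15, 6.15 and 6.08 in the clone arrays labelled RSL and 6.08, 6.06 and 6.07 in the clone arrays labelled DMSO, against 5.96, 5.98 and 5.95 in parental arrays with RSL and 5.94, 5.96 and 6.01 with DMSO. All 6 clone arrays lay above all 6 parental arrays. The log2 difference was 0.16 with RSL (95% interval 0.09 to 0.23) and 0.10 with DMSO. At these levels the gene is not shown to be above background, and no ratio is given.

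Cyp26b1, an enzyme that clears retinoic acid, had 7.36, 7.36 and 7.40 in the clone arrays labelled RSL and 7.22, 7.34 and 7.26 in the clone arrays labelled DMSO. In parental cells it had 7.25, 7.25 and 7.29 with RSL and 7.33, 7.20 and 7.20 with DMSO. The clone arrays labelled RSL lay above every other array of the set. Their difference from the parental arrays labelled RSL was 0.11 (95% interval 0.03 to 0.20). With DMSO the difference was 0.03 (95% interval -0.05 to 0.12) and the groups overlapped.

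**Figure D2:**
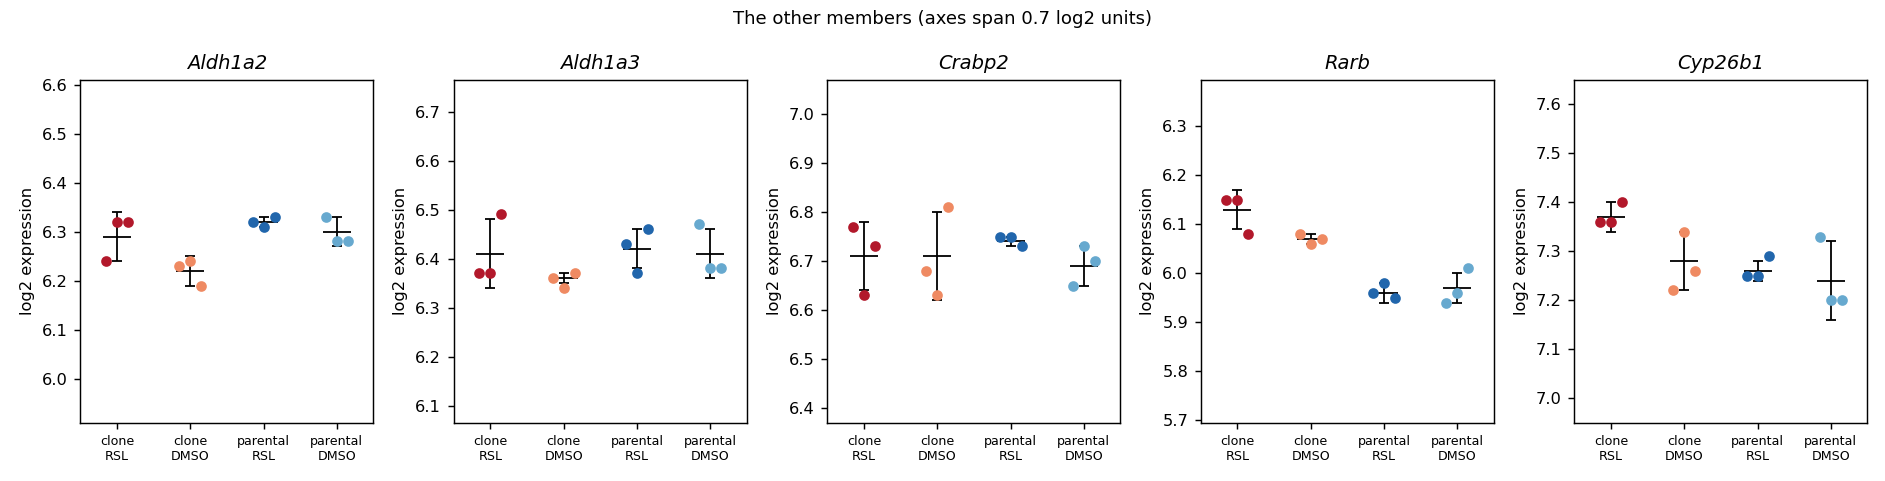
Log2 expression of Aldh1a2, Aldh1a3, Crabp2, Rarb and Cyp26b1 on each array (points), with group means and SD (bars, n = 3 arrays); each panel spans 0.7 log2 units, so that the steps look larger than in the plot of the other 4 genes. Rarb, between 5.94 and 6.15, is higher on every clone array than on any parental array.

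Counted together, 5 of the 9 genes lay higher and 1 lower in the clone without any overlap between clone and parental arrays labelled RSL, beside 21.2% and 23.3% of all probe sets (44.5% together). Over all probe sets 34.2% were called there at an adjusted p under 0.05 (limma, Benjamini-Hochberg over all probe sets), 17.5% higher and 16.8% lower. With DMSO, 4 of 9 lay higher and 3 lower without overlap. The genes had been chosen with these differences in view, so nothing is read from the counts. Over all probe sets these shares were 20.0% and 20.2% (40.2% together), and 29.7% were called.

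**Figure D3:**
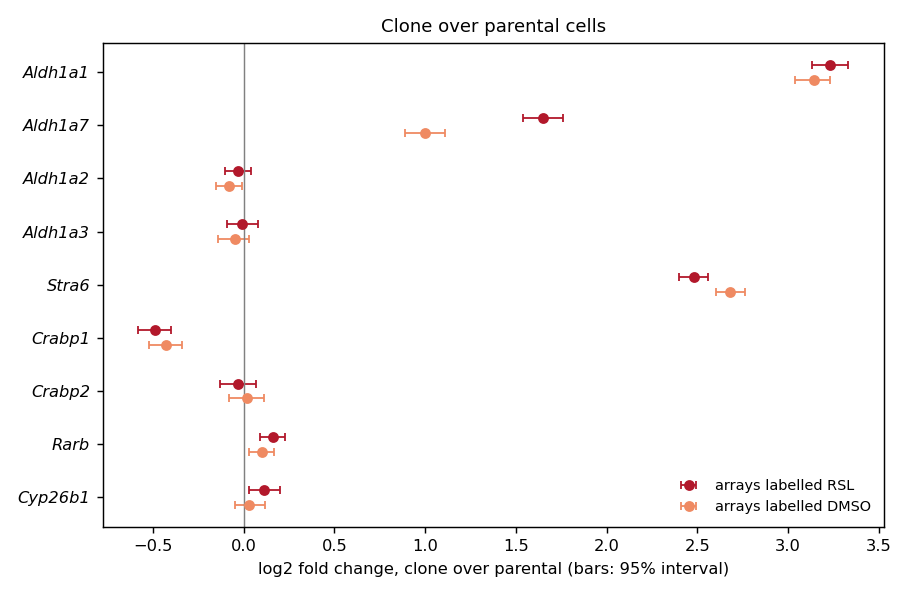
Log2 fold change of the clone over parental cells for each of the 9 genes, in the arrays labelled RSL (dark) and DMSO (light), with 95% intervals from the model of all 12 arrays. Aldh1a1 (3.23 with RSL) and Stra6 (2.48) lie far to the right, Aldh1a7 moves between treatments (1.65 with RSL and 1 with DMSO), and Crabp1 lies left of 0; all values are descriptions, with no test.

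RSL alone, in parental cells without the plasmids, was the control for the ligand. None of the 9 genes was called there (0 of 9, against 5 of 16475 probe sets or 0.0303%, limma), and 1, Crabp1, had an unadjusted p under 0.05. The methods' one-way analysis likewise gave 1 at a nominal p and 0 after Benjamini-Hochberg adjustment. The log2 differences ran from -0.12 for Crabp1 to 0.05 for Stra6 and Crabp2. For Crabp1 the parental groups did not overlap (95% interval -0.21 to -0.02, adjusted p = 0.425, limma), as was so, in that direction, for 6.15% of all probe sets. In the clone, where the choice of genes used the contrast, the differences ran from -0.18 for Crabp1 and -0.15 for Stra6 to 0.10 for Cyp26b1, 0.14 for Aldh1a1 and 0.64 for Aldh1a7. Of the 9 genes, 4 lay higher and 2 lower without overlap there. Over all probe sets 9.34% did so upward and 8.75% downward (18.1% together), and 2.54% were called. The difference between the RSL effects of clone and parental cells was 0.65 for Aldh1a7 and -0.20 for Stra6, and between -0.06 and 0.10 for the other 7.

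**Figure D4:**
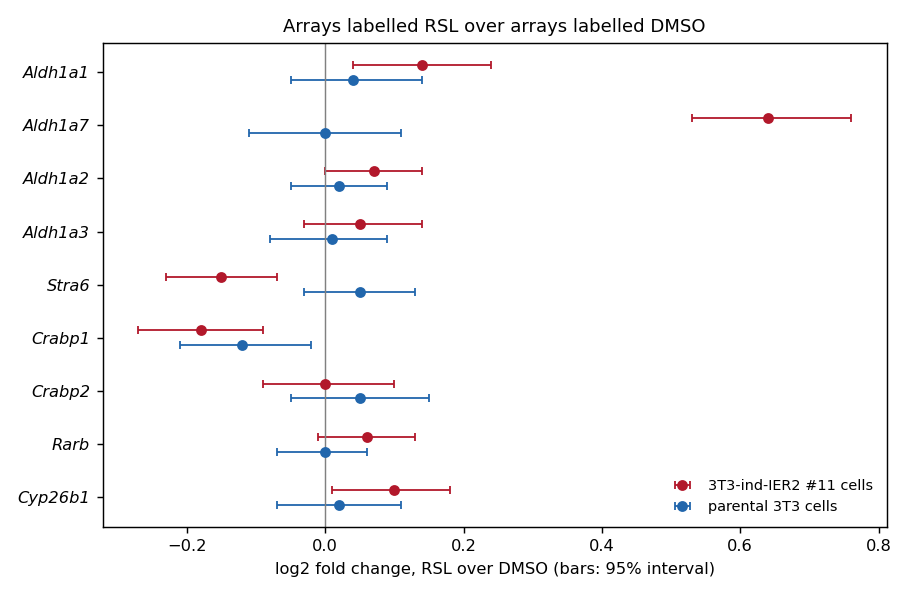
Log2 fold change of the arrays labelled RSL over those labelled DMSO for each of the 9 genes, in the clone (red) and in parental cells (blue), with 95% intervals. Aldh1a7 stands apart in the clone at 0.64 while its parental value is 0.00, and Crabp1 is below 0 in both (-0.18 in the clone and -0.12 in parental cells); the values of the clone are descriptions.

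A wider retinoid list was called in both directions between clone and parental cells, with RSL at nearly the share of all probe sets. The list of 117 genes reaches beyond the pathway, to other aldehyde dehydrogenases and general coregulators. Drawn up with earlier results of these arrays known and holding none of the 9, it had 99 measured members. In the arrays labelled RSL, 15 were higher and 19 lower in the clone than in parental cells, 34.3% against 34.2% of all probe sets, with a median of -0.02 for both the list and all probe sets. In the arrays labelled DMSO 13 were higher and 21 lower, 34.3% against 29.7% (15.2% higher and 14.5% lower over all probe sets), with medians of -0.02 and -0.01. The largest difference on the list with RSL was 0.51, beside 2.48 for Stra6.

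Enzymes that interconvert retinol and retinaldehyde were called in both directions, 6 higher and 3 lower of 21 measured with RSL (42.9%, against 34.2% of all probe sets). Dhrs3, a reductase that returns retinaldehyde to retinol, was higher by 0.37 (adjusted p = 1.47e-06), and Rdh11, another retinaldehyde reductase, by 0.41 (adjusted p = 3.07e-07, both limma). With DMSO the difference was 0.06 for Dhrs3, which was not called (adjusted p = 0.324), and 0.15 for Rdh11 (adjusted p = 0.0059, both limma). Dhrs7, of the same enzyme superfamily, was higher by 0.36 with RSL and 0.42 with DMSO. Rdh10, which oxidises retinol to retinaldehyde and is required for that step in the embryo, was lower, with levels of 8.79, 8.70 and 8.77 in the clone arrays labelled RSL and 9.12, 9.15 and 9.07 in the parental ones (-0.36, adjusted p = 3.53e-07, limma). Dhrs4 was lower by a log2 difference of -0.47 in the arrays labelled DMSO, where Rdh10 differed by -0.29.

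Other aldehyde dehydrogenases split as well, with 3 higher and 5 lower of 16 with RSL (50%, against 34.2% of all probe sets). With DMSO 4 were higher and 7 lower (68.8%, against 29.7% of all probe sets). In the arrays labelled RSL, Aldh3a1 (0.47) and Aldh3a2 (0.40), which oxidise aromatic and fatty aldehydes, were higher. Parental levels of Aldh3a1 were close to the first quartile (means of 6.27 with RSL and 6.26 with DMSO), with 1 array under it in each group. With DMSO Aldh1l2, a mitochondrial enzyme of folate metabolism, was lower (-0.39). Of 12 receptors and partners, 1 was higher and 3 were lower with RSL (33.3%, against 34.2%). Of 8 measured coregulators, 1 was higher and 2 were lower with RSL (37.5%, against 34.2%). The higher one was Ncoa3, a coactivator of nuclear receptors, by 0.51 (adjusted p = 1.23e-08, limma). Of 23 target genes known from cells treated with retinoic acid, 3 were higher and 5 lower with RSL (34.8%, against 34.2% of all probe sets). Dhrs3 (called higher) and Cyp26a1 (not called) were also listed as such targets but are counted in other classes. Of the 23, the one named by size with RSL was the homeobox gene Meis2. It was lower by a log2 difference of -0.36 with RSL and -0.51 with DMSO. With DMSO, 4 of the 23 were higher and 6 lower (43.5%, against 29.7% of all probe sets). Among the higher were Egr1 (1.76), an early response factor listed as such a target, and Rai14 (0.35). In the arrays labelled RSL, Egr1 differed by -0.21 and was not called (adjusted p = 0.291, limma). In each class with 3 or more calls in the arrays labelled RSL, the calls ran in both directions. That did not hold with DMSO, where 0 of the 12 receptors and partners were higher and 4 lower (33.3%, against 29.7% of all probe sets).

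**Figure D5:**
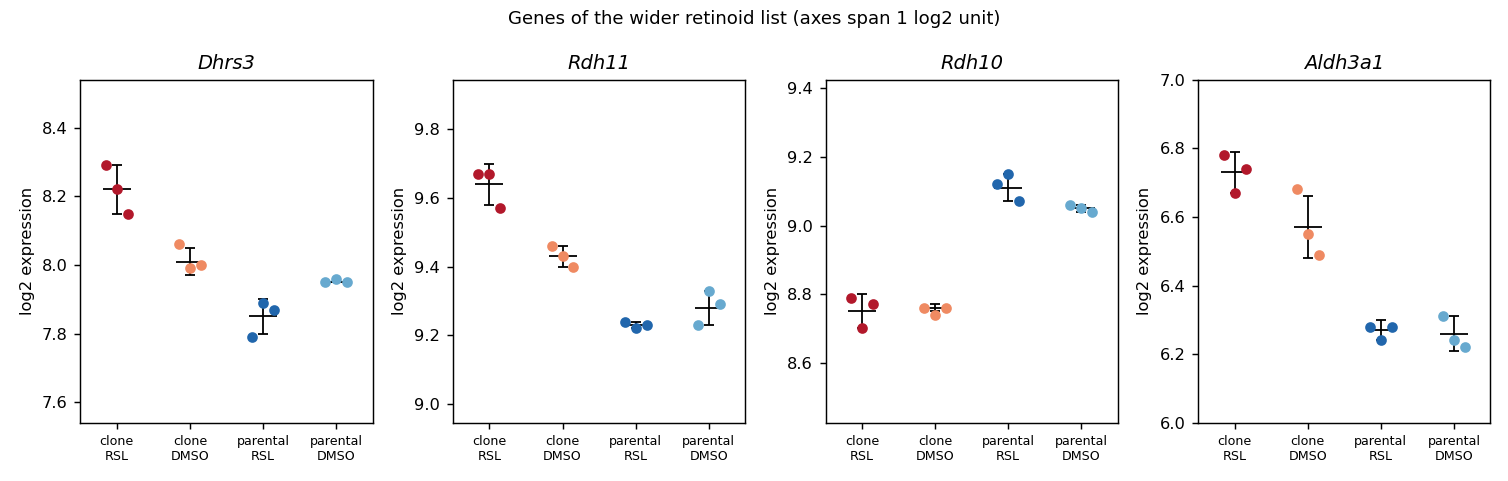
Log2 expression of Dhrs3, Rdh11, Rdh10 and Aldh3a1 on each array (points), with group means and SD (bars, n = 3 arrays); each panel spans 1 log2 unit. The 4 were picked for the plot after their values were seen: Dhrs3 and Rdh11 are highest in the clone with RSL, and Rdh10 is lower in the clone than in parental cells.

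With RSL in the clone, 3 genes of the list were called higher and 4 lower (7.07%, against 2.54% of all probe sets, of which 1.32% were higher and 1.21% lower). Nothing is read from this share, since the list was drawn up with earlier results of these arrays known. The list also holds Egr1, whose RSL difference in the clone was the largest of all probe sets. Dhrs3 had 8.29, 8.22 and 8.15 in the clone arrays labelled RSL and 8.06, 7.99 and 8.0 in those labelled DMSO, a difference of 0.21 (adjusted p = 0.00776, limma). Rdh11 had 9.67, 9.67 and 9.57 with RSL and 9.46, 9.43 and 9.40 with DMSO, likewise 0.21 (adjusted p = 0.00558, limma). Both enzymes reduce retinaldehyde, and in neither did the treatment groups overlap. Of the 21 measured enzymes that interconvert retinol and retinaldehyde, these 2 were called and 19, other retinaldehyde reductases among them, were not. The third gene called higher, Lipe, the hormone-sensitive lipase that can also split retinyl esters, differed by 0.18. The genes called lower were Egr1 (-1.18), the endocytic receptor Lrp1 (-0.28), Angptl4 (-0.25), which inhibits lipoprotein lipase, and Rai14 (-0.15). Several of these calls rested on single arrays. Without clone DMSO replicate 2, those of Dhrs3, Lipe, Lrp1 and Rai14 were lost and 3 of the 7 were left, and without clone RSL replicate 1, those of Dhrs3, Lipe and Lrp1 were lost and 4 were left. Without clone DMSO replicate 1 Lrp1 differed by -0.18, and Lipe and Rai14 lost their calls too. Leaving out clone RSL replicate 2 or 3 also ended the calls of Lipe and Lrp1, as did parental RSL replicate 1 for Lrp1. Both calls were also lost in the methods' one-way analysis with Benjamini-Hochberg adjustment (adjusted p-values of 0.0761 for Lipe and 0.213 for Lrp1). The call of Rdh11 held in all 21 alternatives, with adjusted p-values of 0.00038 to 0.038.

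In parental cells none of the 99 was called with RSL (0 of 99, against 0.0303%), 18 had an unadjusted p under 0.05, and the 3 with the smallest p were Egr1 (0.78), Rdh9 (-0.14) and Angptl4 (-0.13). Rdh9 was under the first quartile on every array and is not shown to be above background. The RSL effect differed between clone and parental cells for 3 genes of the list (3.03%, against 0.662% of all probe sets, split into 0.358% higher and 0.303% lower). They were Dhrs3 by 0.31 (adjusted p = 0.0121), Rdh11 by 0.26 (adjusted p = 0.0323) and Egr1 by -1.97 (adjusted p = 0.000262, limma for all 3). As the list was drawn up with earlier results known, nothing is read from the share of 3.03%. The call of Rdh11 was lost in 12 of 20 alternatives, including those without any 1 array other than clone RSL replicate 3 or parental DMSO replicate 1, and that of Dhrs3 was lost without clone DMSO replicate 2 (adjusted p = 0.0516, limma; 0.000479 to 0.0961 over its alternatives). In the methods' one-way analysis with Benjamini-Hochberg adjustment none of the 3 passed, with adjusted p-values of 0.0961 for Dhrs3, 0.116 for Rdh11 and 0.0557 for Egr1. Egr1 was called in the other 19 alternatives.

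The genes whose profile over the 12 arrays came closest to those of the 3 leading genes were sought by the root mean square distance of centred log2 values, as a description. Nearest to Stra6 were Thbs1 (0.13), which encodes a matrix glycoprotein, Cox7b2 (0.20), the peptide hormone gene Cck (0.21), Pnma5 (0.22) and Dpep1 (0.32), beside a spread of 1.29 for Stra6 itself. Nearest to Aldh1a1 (spread 1.59) were Thbs1 (0.33), Cck (0.46), Cox7b2 (0.49), Pnma5 (0.51) and Ptx3 (0.55), so that 4 of 5 names recur. The distance takes in the size of a difference as well as its pattern, and Stra6 itself lay at 0.32 from Aldh1a1. Aldh1a7 (spread 0.70) had other neighbours: Adm (0.18), Vgll3 (0.19), Serpina1a (0.19), Il6 (0.19) and Cxcl1 (0.20), which include a cytokine and a chemokine gene. Its distance from Aldh1a1 was 0.95. Of its 5, Adm had the most similar RSL difference in the clone, at 0.53, but also 0.28 in parental cells, where Aldh1a7 had 0.00.

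The genes beside the 3 on the chromosome were looked up after the members' values had been seen. Around Aldh1a1 and Aldh1a7, the 5 nearest measured genes on each side differed between clone and parental cells with RSL by -0.10 to 0.22, and 2 of 10 were called (Nmrk1 at 0.22 and Zfand5 at 0.21). Around Stra6 on chromosome 9 the range was -0.12 to 0.18, with Ubl7 (0.18) and Pml (0.14) higher and Loxl1 (-0.12) lower. These shares compare with 34.2% of all probe sets, and none of the 20 neighbours approached the differences of 3.23 and 2.48. With DMSO the largest neighbour difference was 0.36, for Sema7a near Stra6 (adjusted p = 2.16e-06, limma). Within the clone, Sema7a differed by -0.30 between the arrays labelled RSL and DMSO (adjusted p = 0.000355, limma). A link with Stra6 was not tested.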

How the data were processed

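The log2 values analysed were deposited by the authors as a table of 16539 probe sets on 12 arrays. Their methods describe an Entrez-based Custom CDF, RMA background correction and quantile normalization. The log base was read from the range of values (5.19 to 14.26). How probes were summarised is, in the sources used here, not given. The table had 0 columns of other samples. RNA was extracted with RNAPure peqGOLD according to the methods and with Trizol according to the labels.

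From these values, 64 hybridization controls were removed and 16475 probe sets were fitted without a filter in limma 3.58.1 (R 4.3.3), with 4 group means, no block, 8 residual degrees of freedom and Benjamini-Hochberg adjustment (called under 0.05). Of these, 15780 had 1 gene symbol in the platform annotation, 695 had none and 0 had several; 15752 matched RefSeq genes (GRCm38.p6). All fold changes are on the log2 scale. The 9 genes, the wider list and the tests were chosen with earlier results of these data known. For the 9, only the RSL effect in parental cells is given with a test. Tests of their clone difference in the arrays labelled RSL were planned and run but are not reported, since the choice of the genes looked across all 12 arrays.

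Named by rule were all 9 genes, up to 8 called genes of the wider list per comparison by size (or the 3 with the smallest p if none was called), and the 5 nearest profiles of Aldh1a1, Stra6 and Aldh1a7. Precision is limited by the number of arrays. With 3 arrays against 3, exact permutation cannot reach p-values under 0.1. The replicates are called biological but not traced to separate cultures, and the p-values reflect only how far these arrays scatter. Alternatives were a replicate block, a filter that drops 40% of probe sets by mean level, an intensity trend, array weights, median centring, repeated quantile normalization, the 6 arrays of a comparison alone, the methods' one-way analysis, and leaving out each array in turn. Scripts were tested on simulated data.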

Additional observations from a re-analysis of the deposited data

Results flagged for a closer look

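The effect of RSL differed between clone and parental cells, by a test of the difference itself, for 3 genes of the wider retinoid list, and each is given as a value with no explanation. Dhrs3 differed by 0.31, with 0.21 in the clone and -0.11 in parental cells, which was not called (adjusted p = 0.419, limma). The parental arrays labelled RSL lay below those labelled DMSO. The call of Dhrs3 was lost without clone DMSO replicate 2 (adjusted p = 0.0516, limma). It was also lost in the methods' one-way analysis with Benjamini-Hochberg adjustment (adjusted p = 0.0961). Rdh11 differed by 0.26, and the call was lost in 12 of 20 alternatives. Egr1 differed by -1.97, with -1.18 in the clone and 0.78 in parental cells, and lost its call in the methods' one-way analysis with Benjamini-Hochberg adjustment (adjusted p = 0.0557). No group has over 3 arrays, so single arrays far from their group were not looked for.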

How the results depend on the processing

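Across the alternatives the clone difference of Aldh1a1 with RSL stayed between 3.21 and 3.25. Signs near 0 turned: Aldh1a3 in the clone against parental cells with RSL, to 0.02 with repeated quantile normalization, 0.02 or 0.01 without clone RSL replicate 1 or 2 and 0.01 without parental RSL replicate 3 (-0.04 to 0.02 without 1 array); Crabp2 there, to 0.01 without clone RSL replicate 2 (-0.06 to 0.01); Aldh1a3 in parental cells with RSL, to -0.02 with repeated quantile normalization and -0.01 without parental DMSO replicate 2 or 3 or parental RSL replicate 3 (-0.01 to 0.04); and Aldh1a1 there, to -0.01 without parental DMSO replicate 1 (-0.01 to 0.10). The cause was not tested.

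The 5 probe sets called for RSL in parental cells became 8 with the low 40% left out or with repeated quantile normalization, 10 with an intensity trend, 106 with array weights, 2 with the 6 arrays alone, and 1415 nominal or 0 adjusted in the one-way analysis (1 to 12 without 1 array). There the wider list had 1 call with array weights or 6 arrays alone and 18 nominally (0 to 1 without 1 array), and the 9 genes had 1 nominally (0 to 0). In the clone, the list's 7 calls became 17 nominally (3 to 7 without 1 array). For clone against parental cells with RSL, leaving out 1 array gave 4707 to 5924 probe sets and 29 to 35 list genes, and with DMSO 30 to 35 list genes. Deviations from the group means had correlations of -0.30 to 0.21 for same-numbered arrays and -0.33 to 0.32 for other pairs. With 3 arrays in a group this cannot show whether the numbers pair samples. Among named genes the replicate block ended the calls of Lrp1 in the clone with RSL and of Rdh11 in the difference of RSL effects. Aldh1a2, Aldh1a3 and Rarb fall under the low filter and have no value there, and the 6-array fit gives none for the difference of RSL effects.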
